A study of Mus musculus with 38 samples.

Results

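The genes described here are 10 genes of the Crumbs and Par cell polarity complexes in the postnatal mouse retina. They are Crb1, Crb2 and Crb3 of the Crumbs family, the scaffold genes Mpp5 (Pals1), Mpp3, Mpp4 and Inadl (Patj), and the Par complex genes Pard3, Pard6b and Prkci. They were chosen by name, as every probe whose gene name on the array is 1 of these 10, out of 31731 gene names. Together they have 20 probes of 60 bases, and none of the 20 was lost to a filter. Pard3 has 4 probes, Inadl has 5, Crb1, Crb3 and Mpp4 have a pair each, and the remaining genes have a single probe. For a gene with several probes, the brightest one on average leads the description.

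Crumbs proteins are transmembrane proteins that sit just above the adherens junctions of epithelial cells. Through a short intracellular tail they bind the scaffold PALS1, which binds PATJ, and they connect to the Par complex of PAR3, PAR6 and atypical protein kinase C. In the retina these proteins gather at the outer limiting membrane, the belt of junctions between photoreceptors, Müller glia and progenitor cells that keeps the photoreceptor layer in order. Loss of CRB1 or CRB2 at this place is known to disturb the layering of the retina.

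Total RNA of single neural retinas, freed of the retinal pigment epithelium (RPE), was measured at postnatal day 0 (P0), P3, P6 and P10. Retinas of Crb2 conditional knockout mice (Crb2F/F Chx10Cre+/-, here cKO), with both Crb2 alleles floxed, were compared with control retinas (Crb2F/+ Chx10Cre+/-), which also carry the Cre and 1 floxed allele. Each genotype had 5 retinas at the first 3 ages and 4 at P10, on 19 two-colour arrays that each hold 1 control and 1 cKO retina. Whether any of the retinas came from the same pup is not given in the sources used here, so p-values measure the spread between these 38 retinas. The Chx10 promoter drives Cre in retinal progenitor cells, and the study describes it as acting in a mosaic, so cKO retinas may hold recombined cells next to cells that are not. Because RNA of the whole tissue was measured, fewer cells of a type and less RNA per cell cannot be told apart.

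The values are log2 intensities after background correction and quantile normalisation, and a difference of 1 is a doubling. Levels are compared within a probe and not between probes. Per retina, 63.9% to 80.2% of the features on the array were well above background by the scanner's own test. Of the 20 probes, 17 were well above background in all 38 retinas. The leading Crb3 probe was so in 30 retinas, the other Crb3 probe in 2, and Inadl probe A_55_P2104425 in 28. The standard deviation within a group of 1 age and genotype had a median of 0.153 over the 160 combinations of probe and group, and ranged from 0.0340 to 0.718. Rod markers rose (6 of 6, median 5.72) and markers of progenitor and dividing cells fell (6 of 6, median -6.49) from P0 to P10, as limma called them at an adjusted p below 0.05. Of 62 markers of 12 cell types, 0 were called between the genotypes in any comparison, and 8 of them had an unadjusted p below 0.05 at P10 (1.57% of all probes).

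The retinas of P10 differed in further ways that stand beside every P10 comparison of the genotypes. Xist, the RNA of the inactive X chromosome, was high (over 8) in 4 of 4 cKO retinas and in 1 of 4 control retinas at P10, while it was high in 1 and 1 of 5 at P0. The 6 RPE markers measured had a median difference (cKO minus control) of -0.77 at P10, ranging from -1.22 to 0.06, with 0 of 6 called. By limma, 2 of the 6 had an unadjusted p below 0.05, beside 1.57% of all probes. Their mean level was 8.32 to 9.93 in the control retinas and 8.36 to 9.37 in the cKO retinas, and 5 of the 6 were well above background in every P10 retina, although the RPE was taken off. The 6 Müller glia markers had a median difference of -0.07 at P10, ranging from -0.42 to 0.07. Of these, 2 had an unadjusted p below 0.05 by limma, and the smallest adjusted p was 0.0966. The 6 markers of progenitor and dividing cells had a median difference of 0.20, ranging from 0.01 to 0.49, also with 2 of 6 below 0.05 before adjustment. Cone and horizontal cell markers had 1 such marker each. The study's list of hybridised pairs gives the P10 retinas the same genotypes as the sample labels, while its RNA quality list has them exchanged. An exchange would turn the sign of every genotype difference at P10, these included. With the Xist level as a covariate, 0 of 100 genotype results of the Crumbs and Par probes were called. Of these 100, 9 differed in sign from the fit without it. The part of the RPE, Müller glia, progenitor and other marker differences in the results was not tested.

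Sequences of some of the probes are printed 5′ to 3′ on the strand of the gene, so that each value can be tied to the piece of RNA it reports. Each has at least 1 reading frame without a stop codon over its whole length. The Crb2 probe, not printed, has 1 such frame as well, so this does not show that a probe lies in coding sequence. Positions are those of mm9, as in the scanner files. For Crb1, the probe at chr1:141131364-141131423 (minus strand) is the one not touched by the bright spot described below. For Crb3, the leading probe is at chr17:57204546-57204605 (plus strand). For Mpp4, whose level moved most, the leading probe A_55_P2064851 is at chr1:59180288-59180347 and the other, A_55_P2064856, at chr1:59201561-59201620 (both minus strand). For Pard6b, the probe is at chr2:167912863-167912922 (plus strand). All letters are in lower case, since no base within a probe is singled out.
Crb1 A_55_P2132498: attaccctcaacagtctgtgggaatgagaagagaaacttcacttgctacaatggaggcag
Crb3 A_55_P2137979: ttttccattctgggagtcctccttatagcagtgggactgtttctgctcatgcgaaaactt
Mpp4 A_55_P2064851: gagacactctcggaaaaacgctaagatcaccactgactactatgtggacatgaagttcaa
Mpp4 A_55_P2064856: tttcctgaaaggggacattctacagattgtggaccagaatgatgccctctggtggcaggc
Pard6b A_51_P374101: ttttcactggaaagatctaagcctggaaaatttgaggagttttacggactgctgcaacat

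The first question was compensation, that is, whether RNA of the other Crumbs and Par genes was higher in retinas that lose CRB2. None of the 20 probes was called between the genotypes, over all ages together or at any age. Over all ages together limma called 0 of the 20, beside 0.00509% of all 39283 probes tested. Age by age it called 0 of the 20 at P0 (0% of all probes) and 0 at P6 (0%), as well as 0 at P3 (0.00255%) and 0 at P10 (0.00255%). The interaction of age and genotype was called for 0 of the 20, beside 0% of all probes. By limma, 0 of the 20 probes had an unadjusted p below 0.05 in any of these comparisons, while such a p was found for 2.85% of all probes over all ages, for 5.54% at P3, 1.57% at P10, 0.776% at P6 and 0.542% at P0. The smallest unadjusted p of the 20 was 0.0892 over all ages and 0.0729 at a single age, and the smallest adjusted p was 0.921. The median difference (cKO minus control) of the 20 probes was -0.01 over all ages, beside -0.00498 over all probes, and it lay between -0.03 and 0.01 at the single ages. Over all ages, the 95% interval of each of the 20 probes stayed within a 1.5-fold change in either direction, the widest reaching 1.25-fold and the narrowest 1.07-fold. At single ages the intervals stayed within 1.5-fold for 20 of 20 probes at P0 and P3, and for 19 of 20 at the later ages. The exception at P6 and at P10 was Crb3 probe A_51_P328089, well above background in 2 of 38 retinas, whose interval was wider.

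**Figure D1:**
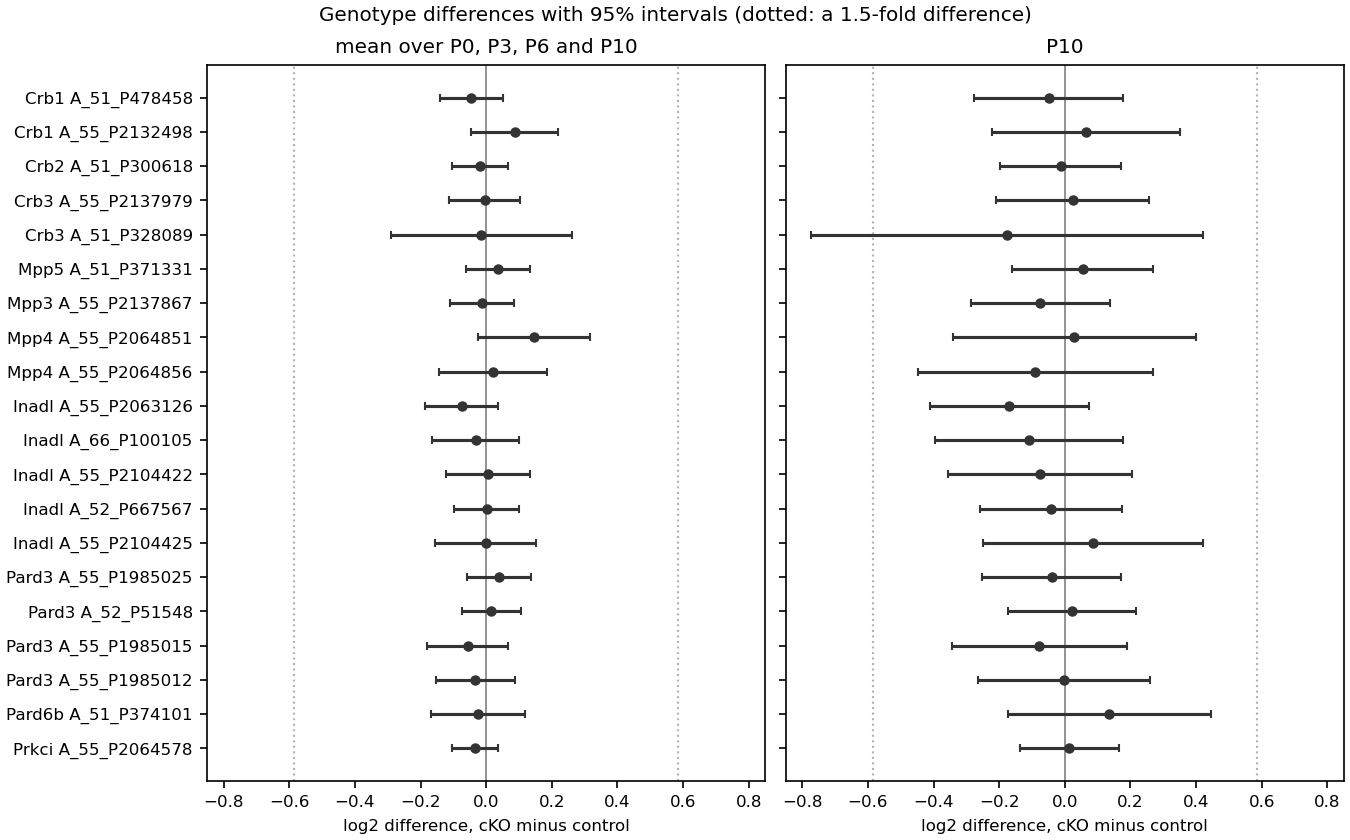
Difference in log2 intensity, cKO minus control (points), with the 95% interval from limma (bars), over all ages (left) and at P10 (right), 1 row for each of the 20 probes. Dotted lines mark a 1.5-fold difference. All intervals hold 0, and at P10 that of Crb3 probe A_51_P328089 reaches past a dotted line.

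Crb2 encodes the Crumbs protein removed in the cKO. Its only probe, at chr2:37654440-37654499 of mm9 (plus strand), lies behind the floxed part of the gene, so it reads recombined and intact transcripts alike and does not check the deletion. At P3 its log2 intensity was 11.33, 11.50, 11.45, 11.41 and 11.35 in the control retinas and 11.71, 11.45, 11.43, 11.63 and 11.37 in the cKO retinas. At P6 it was 12.22, 12.14, 12.22, 12.21 and 12.20 in the control retinas and 11.98, 12.17, 12.11, 12.15 and 12.08 in the cKO retinas. The genotypes overlapped at both ages, with more low cKO retinas at P6. The difference at P6 was -0.10 (SE 0.081, adjusted p = 1.00 by limma), while the two-sided exact permutation test gave p = 0.0238. This was the only one of 80 exact permutation tests, 20 probes at 4 ages, with a p below 0.05 before any adjustment. The test was run for these 20 probes only, so no share over all probes stands beside that count. Over all ages the difference was -0.02 (SE 0.042, 95% interval -0.10 to 0.07), and the cKO retina was the higher one on 8 of 19 arrays.

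Crb1 encodes the family member that shares the outer limiting membrane with CRB2. Its leading probe, A_51_P478458, is at chr1:141094924-141094983 of mm9 (minus strand). At P0 it gave 10.01, 9.88, 9.82, 9.81 and 9.83 in control retinas and 9.88, 9.99, 9.93, 9.83 and 9.84 in cKO retinas. At P3 it gave 9.69, 9.66, 9.81, 9.62 and 9.73 in control retinas and 9.47, 9.61, 9.63, 10.01 and 9.74 in cKO retinas. At both ages the ranges of the genotypes overlapped, and the single highest retina of P3 was a cKO retina. At P6 it gave 9.51, 9.18, 9.53, 9.40 and 9.22 in control retinas and 9.16, 9.40, 9.29, 9.18 and 9.09 in cKO retinas. At P10 the 3 arrays with a usable spot gave 9.70, 9.28 and 9.47 in control retinas and 9.47, 9.38 and 9.45 in cKO retinas. The groups overlapped here too. Over all ages the difference was -0.05 (SE 0.047, 95% interval -0.14 to 0.05), which bounds a change in either direction at 1.10-fold, with the cKO retina higher on 8 of 18 arrays. The other Crb1 probe, A_55_P2132498, which reads a stretch 36.5 kb away, gave 0.09 (SE 0.065, 95% interval -0.05 to 0.22), with the cKO retina higher on 11 of 19 arrays. At P10 this probe gave 8.997, 8.77, 8.97 and 8.92 in control retinas and 9.47, 8.83, 8.84 and 8.78 in cKO retinas, so that 1 cKO retina lay above all others and the remaining 3 lay within the control range.

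The P10 value of the leading Crb1 probe on array 4 was left out because of its local background. There, the background beside the spot was 65206 in the Cy3 channel, which held the control retina, and 65410 in the Cy5 channel, which held the cKO retina. The spot itself had means of 614 and 1131, and beside the other P10 spots of this probe the background was 41 to 59. If the spot was kept, the control and the cKO retina of this array both read -0.11 on the log2 scale, against 9.28 to 9.70 in the other 6 retinas of P10. The difference between P10 and P0 of this probe then became -2.82 (SE 0.978, adjusted p = 0.0133) in place of -0.42 (SE 0.071, adjusted p = 4.1e-06), and its differences between neighbouring ages up to P6 were no longer called (adjusted p = 0.903 for P3 against P0 and 0.785 for P6 against P3). The genotype difference at P10 was near 0 either way, at -0.05 (SE 0.112) without the spot and -0.04 (SE 1.46) with it.

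Crb3 encodes the short Crumbs protein of most epithelia. Its leading probe gave 6.14, 6.03, 6.11 and 5.79 in control retinas and 6.01, 5.96, 6.12 and 6.07 in cKO retinas at P10. It lay between 5.65 and 6.33 over all 38 retinas, near the lower end of what the array measures, and the genotypes overlapped at every age. Over all ages the difference was -0.01 (SE 0.053, 95% interval -0.11 to 0.10). No fold is given for the other Crb3 probe, since only 2 of 38 retinas had it well above background.

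Of the scaffold genes, Mpp5 encodes PALS1, the direct partner of the Crumbs tail. At P10 it gave 9.81, 9.62, 9.75 and 9.88 in control retinas and 9.75, 9.77, 9.95 and 9.81 in cKO retinas. Its difference over all ages was 0.04 (SE 0.048, 95% interval -0.06 to 0.13). Mpp3, which encodes a related membrane-associated guanylate kinase (MAGUK) protein, gave 8.53, 8.74, 8.73 and 8.44 in control retinas and 8.48, 8.70, 8.57 and 8.41 in cKO retinas at P10. The cKO retina was the lower one on 4 of 4 P10 arrays for Mpp3, by 0.07 on average (SE 0.104, adjusted p = 1.00), and the ranges overlapped. Of the 80 combinations of probe and age, 8 had every array on one side, 7 with the cKO retina lower and 1 with it higher, beside 8.21% of the combinations over all probes. Mpp4, a MAGUK gene of photoreceptors, had the difference farthest from 0 over all ages, 0.15 (SE 0.084, 95% interval -0.02 to 0.32, unadjusted p = 0.0892, adjusted p = 1.00), with the cKO retina higher on 12 of 19 arrays. Its other probe gave 0.02 (SE 0.081) over the same retinas. Inadl, whose protein PATJ binds PALS1, gave -0.07 (SE 0.055, 95% interval -0.19 to 0.04) with its leading probe, and the other 4 Inadl probes lay between -0.03 and 0.01.

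In the Par complex, Pard3 encodes the scaffold PAR3, Pard6b encodes PAR6B, which holds the kinase, and Prkci encodes the kinase itself, atypical protein kinase C iota. The leading Pard3 probe differed by 0.04 (SE 0.048, 95% interval -0.06 to 0.14) over all ages, and the other 3 Pard3 probes by -0.06 to 0.02. Pard6b differed by -0.03 (SE 0.070, 95% interval -0.17 to 0.12), and at P10 it gave 7.13, 7.15, 7.27 and 6.94 in control retinas and 7.41, 7.40, 7.29 and 6.94 in cKO retinas. The cKO retinas of Pard6b at P10 included the highest values, on 3 of 4 arrays, with a difference of 0.14 (SE 0.152) that was not called. Prkci had one of the narrowest intervals, with a difference of -0.03 (SE 0.034, 95% interval -0.10 to 0.04).

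A block for the array compares the 2 retinas hybridised together. With this block fixed and with it random, the count of called probes stayed at 0 of 20 in all 5 genotype comparisons, and the smallest adjusted p was 0.331 and 0.278. Before adjustment the fixed block left 4 intervals without 0. They were those of Prkci (-0.11, SE 0.045, 95% interval -0.20 to -0.01) and the leading Crb3 probe (0.14, SE 0.056, 95% interval 0.02 to 0.26) at P0, of Pard3 probe A_55_P1985025 (0.15, SE 0.060, 95% interval 0.02 to 0.27) at P3 and of the leading Inadl probe (-0.21, SE 0.089, 95% interval -0.40 to -0.03) at P10. The two-sided exact permutation test cannot go below p = 0.00794 with 5 retinas against 5, 0.0286 with 4 against 4 and 0.1 with 3 against 3. The ranges of cKO and control retinas overlapped in 80 of the 80 combinations of probe and age, and over all probes they did not overlap in 0.7% of such combinations. Nothing in these values shows that the genotypes are alike beyond the intervals given.

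The second question was how the levels moved with age, over both genotypes. Age was called for 18 of the 20 probes by the F-test of limma, beside 68% of all probes, and the exceptions were both Crb3 probes (adjusted p = 0.456 and 0.237). From P0 to P10, 8 of the 20 probes rose (27.2% of all probes rose) and 8 fell (32.3% of all probes fell), so that 16 were called, beside 59.5% of all probes. Counted by leading probes, Mpp4, Pard6b, Inadl, Crb2 and Mpp5 rose, Pard3, Prkci, Crb1 and Mpp3 fell, and Crb3 was not called. The median difference over the 20 probes was 0.12, beside -0.06 over all probes. The ages changed in steps. From P0 to P3, 3 of the 20 rose (15% of all probes) and 5 fell (15.2%), 8 in all, beside 30.3%. From P3 to P6, 6 rose and 6 fell (19.1% of all probes each way), 12 in all, beside 38.2%. From P6 to P10, 8 rose (20%) and 5 fell (21.2%), 13 in all, beside 41.1%. More was called with age among the 21408 probes with a mean log2 intensity above 7, which include 14 of the 20. There, limma called 89.8% by the F-test, 80.5% from P0 to P10, and 44.5%, 59.3% and 62% in the 3 steps. The shares of the 20 probes, in the same order 90%, 80%, 40%, 60% and 65%, lay near these. Each slide held 1 or 2 ages. With the slide as a block 9 of the 20 probes were called between P0 and P10, beside 37.4% of all probes. The calls that were lost were those of Mpp5 (0.21, adjusted p = 0.425), Mpp3 (-0.27, 0.282), Crb1 probe A_51_P478458 (-0.35, 0.128), Pard3 probe A_55_P1985012 (-0.58, 0.0545) and the Inadl probes A_55_P2104422 (0.12, 0.744), A_55_P2104425 (-0.72, 0.0571) and A_66_P100105 (0.68, 0.0553), each with its difference and adjusted p under that block. On the slides that hold both neighbouring ages, the 8, 12 and 13 called steps all had the same sign, and 3, 6 and 10 of them were called there. Of all probes, 12.2%, 24.7% and 36.3% were called there. Under a random array block, 4 of the 20 were called from P0 to P3, beside 22.2% of all probes.

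**Figure D2:**
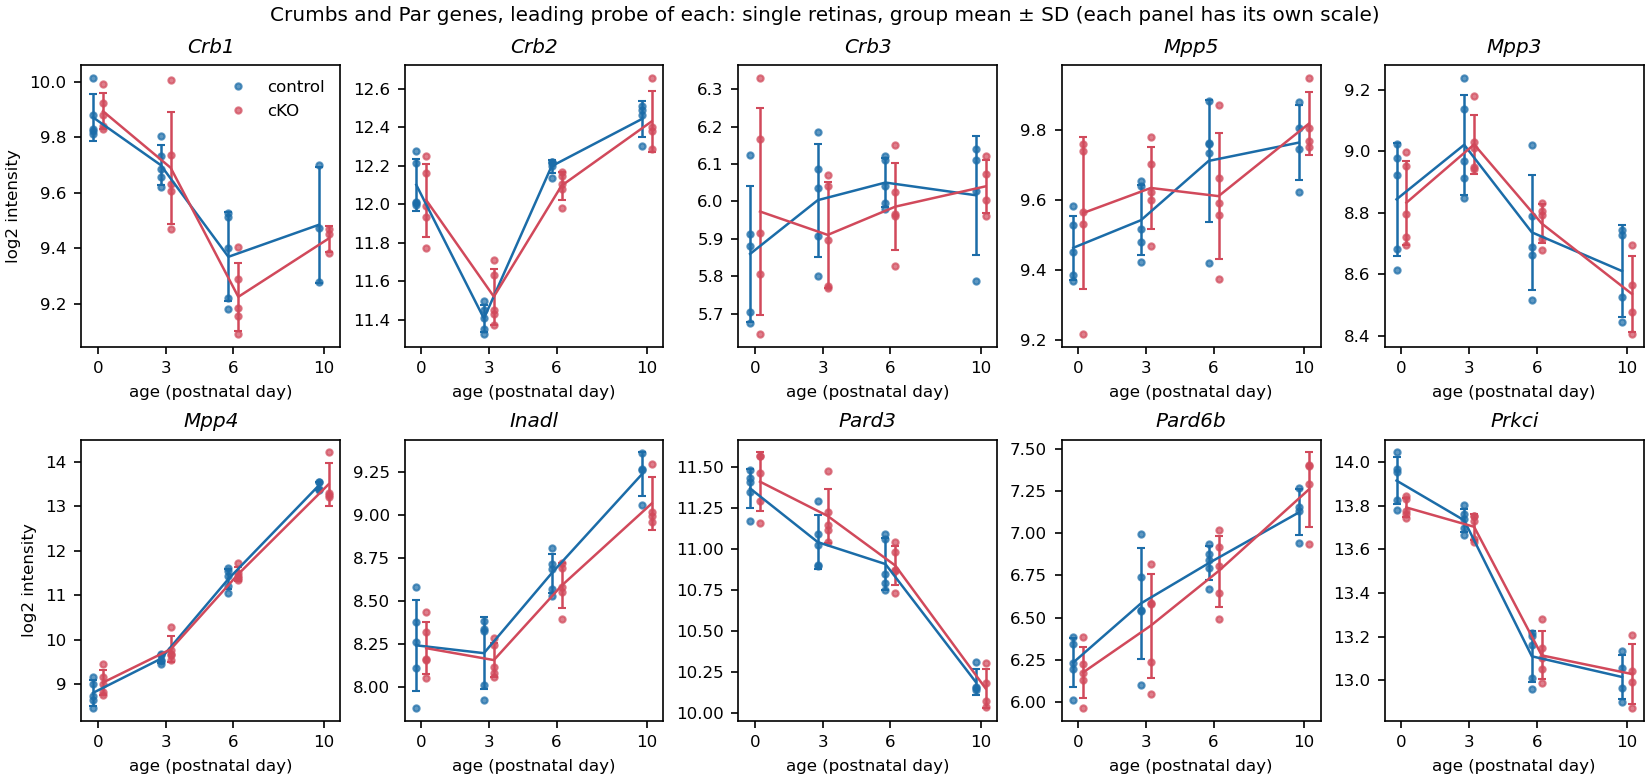
Log2 intensity of the leading probe of each of the 10 genes against age in postnatal days, 1 panel a gene with its own scale, with a point for every control and cKO retina, a line through the group means and bars of 1 SD. Mpp4 climbed from 8.92 to 13.48 on average, Prkci and Pard3 fell, Crb2 dipped at P3, and the points of both genotypes overlapped at every age.

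Mpp4 had the steepest course of the 10 genes. The leading probe ranged from 8.46 to 9.46 at P0 (median 8.91), from 9.46 to 10.28 at P3 (median 9.65), from 11.05 to 11.73 at P6 (median 11.43) and from 13.20 to 14.21 at P10 (median 13.38). No retina of P6 reached the lowest of P10, and none of P3 the lowest of P6. The rise from P0 to P10 was 4.56 (SE 0.122, adjusted p = 2.1e-26, 95% interval 4.31 to 4.81), a 23.6-fold change of intensity. It came in steps of 0.76 (SE 0.115), 1.74 (SE 0.115) and 2.06 (SE 0.122), each called by limma. The other Mpp4 probe, closer to the 5′ end of the gene, rose by 3.06 (SE 0.118, adjusted p = 7.8e-22), or 8.37-fold, and its step from P0 to P3 was not called (0.09, SE 0.111), though it was with the slide as a block (0.49, adjusted p = 0.0371). The values in single retinas at P10 were 13.55, 13.37, 13.54 and 13.40 in control retinas and 14.21, 13.20, 13.26 and 13.30 in cKO retinas for the leading probe. The retina at 14.21 stood apart from the others, and without its array the rise was 4.42.

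The gene whose pattern over the 38 retinas was most like that of Mpp4 was Fam57b (Pearson r = 0.993), among 18958 probes with a gene symbol. This and the correlations given for the other genes are descriptions that carry no p. All points share arrays and the 4 ages, and most of such an r is the course with age. The letters TAATCC and TAAGCC, the core site of the photoreceptor factor CRX and a variant of it, were looked for on both strands in the 250 bases before each start in RefSeq (GRCm38.p6), after the values of Mpp4 had been seen. The first occurs in 6.25% and the second in 8.20% of 32851 promoters of all genes, and in 1 and 3 of the 13 promoters listed for 8 of the 10 genes. Of the Mpp4 promoters, the one at chr1:59161637-59161886 (minus strand) holds TAAGCC on the opposite strand, as GGCTTA, at 59 bases before the start, and TAATCC likewise, as GGATTA, at 23 bases before it. Both are in capitals in the sequence, which is read on the strand of the gene. Another Mpp4 start has TAAGCC at 229 bases before it, and a start of Pard3, which fell with age, has TAAGCC at 193 bases before it. In all, 8 motifs were searched. Of the others, TAATTA occurs in 4.84% of all promoters and in 0 of the 13, CACGTG in 6.02% and in 2, GGAATG in 12.6% and in 3, TTTGGCGC in 0.417% and in 0, TTTCGCGC in 0.256% and in 0, and the site of the rod factor NRL in 11.5% and in 1. A match is a description of letters, and binding was not measured.
Mpp4 promoter: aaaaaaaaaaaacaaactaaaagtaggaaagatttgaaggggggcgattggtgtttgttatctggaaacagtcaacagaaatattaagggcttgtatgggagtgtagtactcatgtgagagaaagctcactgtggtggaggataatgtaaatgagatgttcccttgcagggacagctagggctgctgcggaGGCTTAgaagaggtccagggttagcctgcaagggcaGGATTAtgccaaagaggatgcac

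Pard6b rose from P0 to P10. The lowest, median and highest log2 intensity were 5.96, 6.21 and 6.38 at P0, 6.04, 6.56 and 7.00 at P3, 6.49, 6.83 and 7.02 at P6, and 6.94, 7.21 and 7.41 at P10. Neighbouring ages overlapped in their ranges, while P0 and P10 did not. The rise from P0 to P10 was 0.99 (SE 0.102, adjusted p = 2.1e-10), or 1.98-fold. The steps were 0.31 (adjusted p = 0.0121), 0.28 (adjusted p = 0.0192) and 0.39 (adjusted p = 0.00198). With the array as a random block the steps from P0 to P3 and from P3 to P6 were not called (adjusted p = 0.117 and 0.143), and with the slide as a block none of the 3 steps was (adjusted p = 0.260, 0.327 and 0.0698). The patterns most like that of Pard6b were those of Slc1a2 (r = 0.922), Nrxn2 (r = 0.918) and Rasgrf2 (r = 0.917).

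Crb2 had a course with a dip. Its probe ranged from 11.77 to 12.28 at P0 (median 12.01), from 11.33 to 11.71 at P3 (median 11.44), from 11.98 to 12.22 at P6 (median 12.16) and from 12.29 to 12.66 at P10 (median 12.43). All 10 retinas of P3 were lower than every retina of the other ages. The level fell by 0.60 from P0 to P3 (SE 0.057, adjusted p = 6.3e-10), rose by 0.68 to P6 (SE 0.057, adjusted p = 5.0e-12) and rose by 0.29 to P10 (SE 0.061, adjusted p = 0.000184). In all, P10 was 0.38 above P0 (SE 0.061, adjusted p = 1.9e-06), or 1.30-fold. Genes of the most similar course were Ampd2 (r = 0.907), Zfhx4 (r = 0.905) and Podn (r = 0.905).

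Crb1 fell between P3 and P6. The leading probe had means of 9.88, 9.70, 9.30 and 9.46 at the 4 ages, that of P10 over 6 retinas. The step from P3 to P6 was -0.40 (SE 0.061, adjusted p = 2.4e-06), and the step from P6 to P10 was 0.16 (SE 0.071, adjusted p = 0.0659), which was not called. That last step was called with the slide as a block (0.30, adjusted p = 0.0330) and without P10 array 2 (0.23, adjusted p = 0.0217), P6 array 3 (0.19, adjusted p = 0.0401) or P3 array 4 (0.16, adjusted p = 0.0414). It was also called by limma over only the probes with a mean log2 intensity above 7 (0.16, adjusted p = 0.0410). The step from P0 to P3 was -0.19 (SE 0.061, adjusted p = 0.0190, and 0.0900 with the array as a random block). The other Crb1 probe also fell from P3 to P6, by 0.37 (SE 0.089, adjusted p = 0.00096), and it rose by 0.64 from P6 to P10 (SE 0.094, adjusted p = 9.2e-07). It was not called between P0 and P10 (0.17, SE 0.094, adjusted p = 0.125), where the leading probe was. Genes of the pattern most like that of the leading probe were Ncam1 (r = 0.904), Rest (r = 0.901) and Smtn (r = 0.900), over 36 retinas.

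Prkci and Pard3 fell. Prkci had its lowest, median and highest value at 13.75, 13.83 and 14.05 at P0, 13.63, 13.73 and 13.80 at P3, 12.96, 13.12 and 13.28 at P6, and 12.87, 13.02 and 13.21 at P10. Every retina of P0 and P3 was above every retina of P6 and P10. The main step was from P3 to P6, at -0.61 (SE 0.047, adjusted p = 7.5e-13). The step from P0 to P3 was -0.14 (SE 0.047, adjusted p = 0.0274, or 0.0556 under a random array block), and the step from P6 to P10 was not called (-0.09, SE 0.050, adjusted p = 0.154). The fall from P0 to P10 was -0.83 (SE 0.050), or 1.78-fold, and the most similar genes were E2f6 (r = 0.974), Rnf26 (r = 0.973) and Incenp (r = 0.973). The leading Pard3 probe fell in each step, by 0.27 (SE 0.066, adjusted p = 0.00205), 0.22 (SE 0.066, adjusted p = 0.00799) and 0.73 (SE 0.070, adjusted p = 1.1e-10). For Pard3 probe A_52_P51548 the step from P3 to P6 (-0.16, SE 0.060, adjusted p = 0.0333) was not called under a random array block (adjusted p = 0.0970). Over P0 to P10 the leading probe went from a median of 11.42 (range 11.16 to 11.57) to 10.16 (range 10.04 to 10.31), a fall of -1.22 (SE 0.070) or 2.33-fold. Most alike were Bend3 (r = 0.973), Trp53i11 (r = 0.968) and Zfp161 (r = 0.960).

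Mpp5 and Mpp3 moved little. Mpp5 had means of 9.51, 9.59, 9.66 and 9.79 at the 4 ages, no neighbouring step was called, and P10 was 0.28 above P0 (SE 0.070, adjusted p = 0.000901). Mpp3 had means of 8.84, 9.02, 8.75 and 8.57. It rose by 0.18 from P0 to P3 (SE 0.066, adjusted p = 0.0330), fell by 0.27 to P6 (SE 0.066, adjusted p = 0.00109) and fell by 0.18 to P10 (SE 0.070, adjusted p = 0.0405). Under a random array block the adjusted p of the first and of the last step was 0.0843 and 0.0912, and each was also lost without some single arrays. The leading Crb3 probe stayed at means of 5.92, 5.96, 6.02 and 6.03, and the gene most like it, Prmt6, reached r = 0.715, followed by Sox10 (r = 0.678) and Pqbp1 (r = 0.657). For Mpp5 the nearest were Cc2d2a (r = 0.818), Mpp7 (r = 0.792) and Cd3eap (r = 0.790), and for Mpp3 they were Ptges3 (r = 0.870), Pcyox1 (r = 0.838) and Fam46c (r = 0.827).

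Inadl had 5 probes over 288 kb of chromosome 4, and they did not move alike. From P0 to P10 the 2 probes of transcript variant 1, near the 3′ end, rose by 0.92 (SE 0.080, A_55_P2063126) and 0.62 (SE 0.094, A_66_P100105). The probe of variant 4, A_55_P2104422, rose by 0.42 (SE 0.092, adjusted p = 0.000168), though not with the slide as a block (0.12, adjusted p = 0.744). Of the 2 probes of variant 2, A_52_P667567 was not called (0.04, SE 0.071), and A_55_P2104425, well above background in 28 retinas, fell by 0.38 (SE 0.111, adjusted p = 0.0031). The leading probe ranged from 7.88 to 8.58 at P0 (median 8.22) and from 8.96 to 9.36 at P10 (median 9.16), with no overlap. Its steps from P3 to P6 (0.45, SE 0.075) and from P6 to P10 (0.53, SE 0.080) were called, and that from P0 to P3 was not (-0.06, SE 0.075). Tmem130 (r = 0.958), Slc26a11 (r = 0.956) and Itih5 (r = 0.950) were most alike.

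The 4 Pard3 probes, over 210 kb of chromosome 8, all fell between P0 and P10. The falls were -1.22 with the leading probe of variant 4, -0.91 (SE 0.064) and -1.01 (SE 0.088) with the probes of variant 3, and -0.39 (SE 0.086, adjusted p = 0.00021) with that of variant 1. The differences between probes of a gene were not tested, and a probe's own efficiency and the transcripts it reads cannot be told apart.

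**Figure D3:**
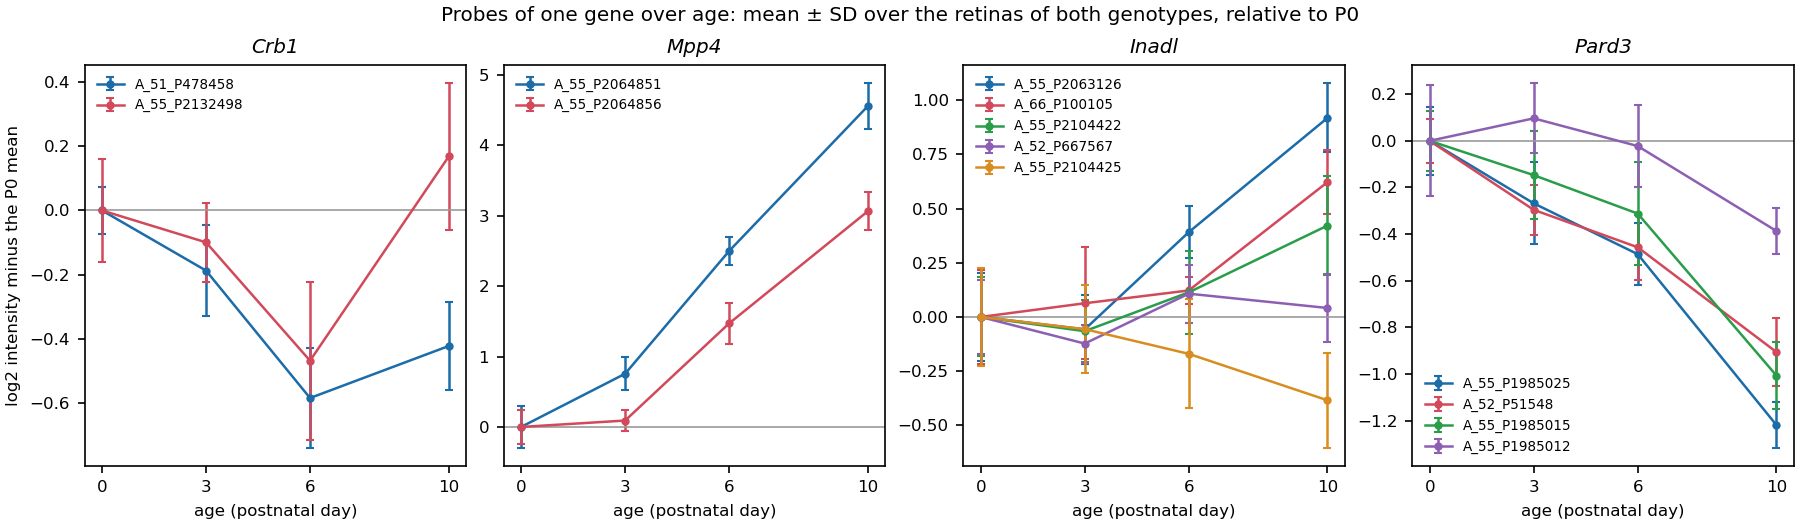
Mean log2 intensity of each probe at each age minus its mean at P0, over the retinas of both genotypes, with bars of 1 SD, for Crb1, Mpp4, Inadl and Pard3. Both Mpp4 probes climbed, the 4 Pard3 probes ended below P0, and the 5 Inadl probes spread from 0.92 to -0.38 at P10.

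Beyond the 10 genes, 48 other genes of cell polarity, junctions and Hippo signalling were measured out of a list of 53 names, each by its brightest probe. Between the genotypes limma called 0 of the 48 in any comparison. Before adjustment, 4 of them passed 0.05 at P3 (5.54% of all probes), 1 over all ages (2.85%) and none at P0, P6 and P10 in limma. The one over all ages was the PAR6 gene Pard6a (-0.10, SE 0.036, unadjusted p = 0.0079, adjusted p = 1.00 by limma). From P0 to P10, 15 of the 48 rose, 24 fell and 9 were not called, beside 27.2% of all probes that rose and 32.3% that fell, with a median difference of -0.15. The 4 with the largest rise were Llgl2 (3.58, SE 0.079), a lethal giant larvae gene, Lin7b (2.03, SE 0.078), which encodes a partner of the MAGUK proteins, Dlg4 (1.94, SE 0.069), the PSD-95 gene of synapses, and Mpp2 (1.75, SE 0.084), a relative of Mpp3. The 4 with the largest fall were the Hippo effector Yap1 (-2.10, SE 0.076), the Yap1 regulator Amot (-1.65, SE 0.057), the junction gene Jam3 (-1.54, SE 0.052) and Tead1 (-1.17, SE 0.112), which encodes the DNA-binding partner of YAP. Of the 37 polarity and junction genes 14 rose and 17 fell, and of the 11 Hippo genes 1 rose and 7 fell, to be read beside the same shares of all probes. Among the probes with a mean log2 intensity above 7, limma called 80.5% from P0 to P10 in either direction.

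**Figure D4:**
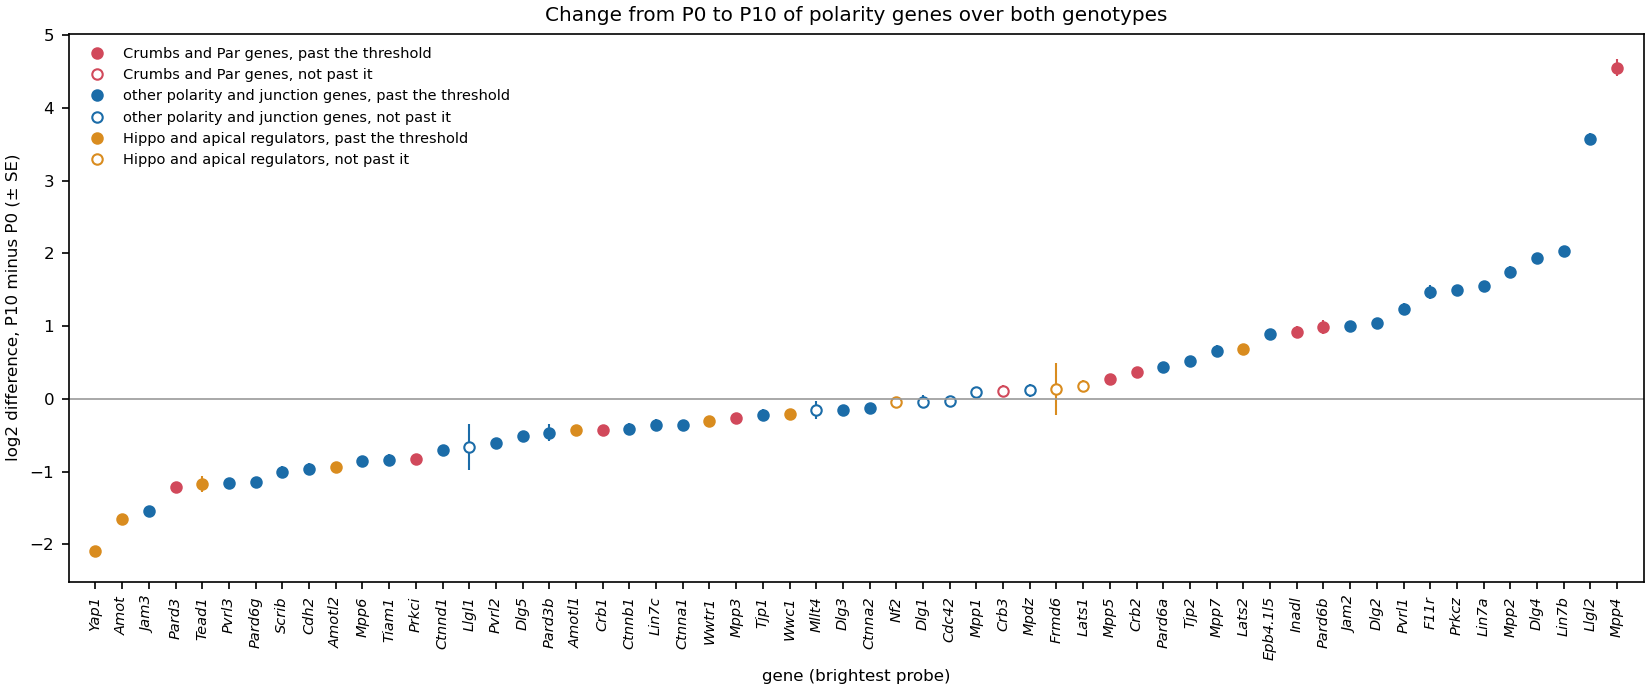
Difference in log2 intensity between P10 and P0 (with the SE of limma) for the brightest probe of the 10 Crumbs and Par genes and of the 48 other polarity and Hippo genes, over both genotypes. Filled points passed the threshold and open points did not. Mpp4 (4.56) and Llgl2 (3.58) lie at the upper end and Yap1 (-2.10) at the lower end.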

How the data were processed

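Total RNA of 38 retinas was hybridised on 19 two-colour arrays, and every channel was treated as a sample. The authors deposited the scanner's mean intensity and local background of each spot and a processed intensity, with flags for saturated, non-uniform and well-above-background spots, as well as log2 intensities that they had made with normexp correction and quantile normalisation in limma. The columns of those log2 values name the group and not the retina. Deposited p-values and log2 fold changes hold the authors' own comparisons and were not used, nor were deposited ratios. Array 20 was not analysed here.

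From the mean and background intensities, values were computed with normexp (offset 0), quantile normalisation over all channels and the average of the spots of a probe, in R 4.3.3 (limma 3.58.1, statmod 1.5.0). Of 44397 features, 1377 control spots and 158 features that were saturated (7) or non-uniform (151) on any array were left out, and 39283 probes were kept. On an array, a spot whose local background was over 10 times the median of its channel was set missing, which removed 9 spots. The signal over background of each array limits the precision.

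A model in limma with 8 groups of age and genotype gave all contrasts, and a probe was called at a Benjamini-Hochberg adjusted p below 0.05 over all probes. For single probes a two-sided exact permutation test over the retinas of that age was run too. Standard errors and intervals share 1 estimate of the spread. The fit was tested on simulated data. The simulated channels were independent, with no array, slide or dye effect, so that test does not cover the pairing of retinas by array. Probe sequences and mm9 positions are those of the scanner files and promoters those of RefSeq, GRCm38.p6. For 8 of the 10 genes a promoter was listed there, and Inadl is Patj there. Named were all probes of the 10 genes, the 4 genes of the wider polarity list that rose most and the 4 that fell most from P0 to P10, and the 3 genes most like each leading probe by Pearson r. Some results under this last rule are not reported here. The 10 genes and the lists were chosen with earlier results of these data known.

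Both retinas of an array share hybridisation, so arrays pair the retinas of a number. The residuals of the 19 pairs correlated by 0.190 to 0.793 (median 0.419). The alternatives were an offset of 50, loess with Aquantile, processed intensities, no background correction, deposited log2 values, the bright spot kept, saturated features kept, probes with a mean log2 intensity above 7 only, dye as a covariate, the array as a random or fixed block with dye, slide as a block, 2 groups of an age alone, the methods' t-test and 2-way ANOVA, the P10 genotypes as the study's RNA quality list gives them, which are swapped against the sample labels, Xist as a covariate, control or cKO retinas alone, ages within a slide, and each array left out in turn.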

Additional observations from a re-analysis of the deposited data

Results flagged for a closer look

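Of 158 combinations of probe and group with 4 or 5 retinas, 5 held a retina set apart from the rest of its group by Dixon's test, where chance flags about 1 in 20. Crb1 probe A_55_P2132498 was at 9.47 in P10 cKO retina 1, with the next retina at 8.84. Mpp4 probe A_55_P2064851 was at 14.21 in the same retina, with the next at 13.30. Without its array the rise of this Mpp4 probe from P0 to P10 was 4.42, and the step of this Crb1 probe from P6 to P10 was 0.54, both still called. Its array is on slide 4 and the other P10 arrays are on slide 5. Crb2 was at 12.14 in P6 control retina 2, the lowest of the group, with the next at 12.20. Inadl probe A_66_P100105 was at 8.09 in P3 control retina 2, with the next at 7.59. Pard3 probe A_55_P1985025 was at 10.31 in P10 control retina 2, with the next at 10.16. For 0 of the 20 probes did every array point one way at one age and the other way at another.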

How the results depend on the processing

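No genotype result of the 20 probes was called under any alternative: 100 results gave 1490 values over 16 alternative settings and 1900 values with single arrays left out, 0 of them called, though 93 and 116 changed their sign. With the genotypes of P10 swapped as the study's RNA quality list has them, against the sample labels and its list of hybridised pairs, 0 of 40 were called as well. Such a swap only turns the sign of the P10 differences, so their p-values could not change. Only the results over all ages were open to a change of call. This setting gave 24 of the 93 changes of sign, and those at P10 were fixed in advance. Of the 1076 values of age results over 14 settings, 990 kept their side of the threshold and 0 called values reversed. Another 73 kept the direction without passing the threshold, and 13 newly passed it. The sign differed from that of the main fit in 15 of the 1076.

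Counts of called probes moved by over 1.5 times in these cases. Shares of all probes called in the same fit stand in brackets. From P0 to P3, 8 probes were called (30.3%), against 4 with the replicate block, that is, array as a random block, with dye (22.2%). With slide as a block 5 were called (13.4%), in control retinas alone 4 (18.2%) and in cKO retinas alone 2 (10.1%). From P3 to P6, 12 were called (38.2%), against 7 with slide as a block (27.8%). In control retinas alone it was 6 (25.6%), and within the slide that holds both ages 7 (24.7%). From P0 to P10, 16 were called (59.5%), against 9 with slide as a block (37.4%). Fits on 1 genotype or 1 slide hold fewer retinas. The cause was not tested for the slide and the array. Of 80 age results, the pairing of retinas by array changed 7 calls, all given beside their results, and no genotype call. Within slides, all 8, 12 and 13 called steps kept their sign, and 3, 6 and 10 of them were called. The shares of all probes called within slides were 12.2%, 24.7% and 36.3%. With single arrays left out, 15 of 1520 age values differed in sign from the main fit. Of the 1520, 1483 kept their side of the threshold, 25 fell short of it and 12 newly passed it. The steps lost that way were those of Mpp3, Prkci and Crb1 from P0 to P3, of Pard6b and of 2 Pard3 probes from P3 to P6, and of Mpp3 and Inadl probe A_55_P2104422 from P6 to P10. Probes near background, above all Crb3 probe A_51_P328089, carry little information at this signal.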
